A study of Mus musculus with 2 samples.

Results

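Type I interferon stimulated genes are the genes that a cell turns on after type I interferon reaches it. The list used here held 50 genes, of which 49 had a column among the 27031 gene columns of the count table, and *Mx2* was not analysed here. The members were chosen by their known response to type I interferon while the ratios between the groups and the leading genes of the macrophage subclusters of these same cells were already known. Their direction in macrophage-like cells and their place among the subclusters are therefore a description, with no test.

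Type I interferons (the alpha family and interferon beta) bind a receptor made of IFNAR1 and IFNAR2, to which the kinases JAK1 and TYK2 are attached. The signal reaches interferon-stimulated response elements in promoters and turns on antiviral genes, several of which (*Irf7*, *Stat2*, *Irf9*) encode parts of the pathway itself. In tumors, macrophages and dendritic cells are known to make and to answer type I interferon, and the response is linked to antigen presentation and T cell priming.

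The cells were CD45+ leukocytes sorted from subcutaneous tumors of MC38, a mouse colon carcinoma line, grown in female C57BL/6 mice of 6 to 8 weeks. The control group received vehicle and the telmisartan group received telmisartan, an angiotensin II receptor blocker, at 5 mg/kg daily by intragastric administration from tumor implantation until harvest on day 13. Cells from the tumors of 5 mice were pooled per group, each pool was labelled with a Sample Tag (tag 1 control, tag 2 telmisartan), and both were captured together on a BD Rhapsody cartridge, which counts unique molecular identifiers (UMIs). With 1 pool per group there was no replicate, so no difference between the groups could be tested, and mouse, pool and treatment cannot be told apart.

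After filtering, 4535 control cells (median 8689 UMIs and 2678 genes per cell) and 4434 telmisartan cells (median 6357.5 UMIs and 2201 genes) remained. Levels are counts per 1000000 UMIs (CPM) of the summed cells of a class, and ratios are log2 of telmisartan over control. Brackets give exact 95% intervals (Poisson for CPM, conditional binomial for ratios, Clopper-Pearson for shares of cells), which cover counting error only and not the spread between mice. Those for CPM and ratios treat UMIs as independent, so they also leave out the spread between cells.

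Summed over the 49 members, macrophage-like cells held 2860 CPM [2843, 2877] in control (4049 cells, median 8977 UMIs) and 4146 CPM [4122, 4170] with telmisartan (3999 cells, median 6463 UMIs), a log2 ratio of 0.54 [0.52, 0.55]. In dendritic-like cells the sum was 4310 CPM [4235, 4386] in 366 control cells and 5634 CPM [5532, 5737] in 298 telmisartan cells, a ratio of 0.39 [0.35, 0.42]. In T-like cells it was 3326 CPM [3158, 3502] in 72 control cells (median 3912 UMIs) and 3873 CPM [3694, 4059] in 113 telmisartan cells (median 3001 UMIs), a ratio of 0.22 [0.12, 0.32]. The highest T-like cell of each group held 9.27% of the control and 6.62% of the telmisartan sum. Without these cells the levels were 3127 and 3737 CPM. The summed level was thus higher with telmisartan in all 3 classes as scaled to CPM, but the T-like direction turned under 3 of the alternative processings, and the difference between the classes' ratios was not tested. Only 72 neutrophil-like cells were kept, and there the sum was 7443 CPM [6909, 8008] in control (48 cells) and 22807 CPM [21465, 24210] with telmisartan (24 cells). A single telmisartan cell held 522 of those UMIs, 48.4% of the sum, and without it the telmisartan level was 12726 CPM. The control neutrophil-like cells without their own highest cell stood at 6610 CPM. Their 6 of 6 neutrophil markers summed to 17216 CPM in control, where *S100a8* was the most abundant, and 9224 CPM with telmisartan, where *S100a9* was, and the part of this difference in the members' level was not tested.

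**Figure D1:**
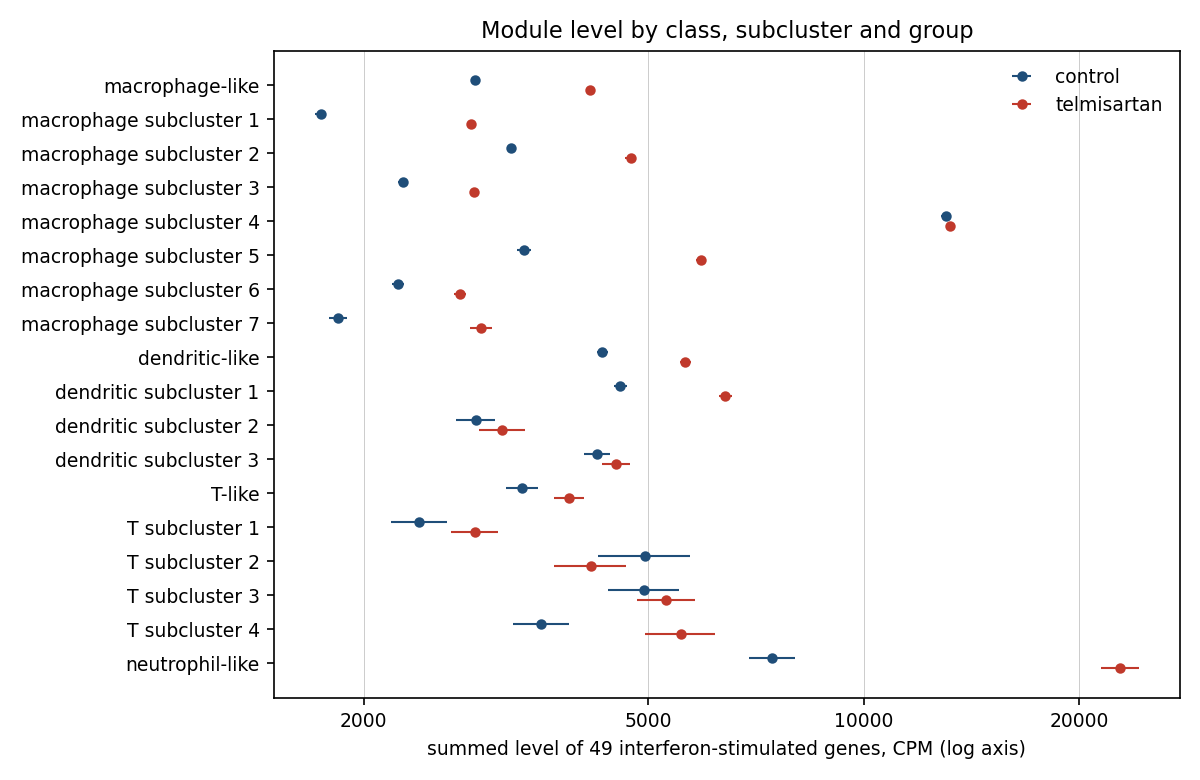
Summed CPM of the 49 members for control and telmisartan cells by class and macrophage subcluster, with exact 95% Poisson intervals as error bars. Subcluster 4 stood at 13032 CPM in control and 13180 CPM with telmisartan, while the other macrophage subclusters lay between 1742 and 5915 CPM.

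In macrophage-like cells all 49 members had at least 100 UMIs in both groups together, from 201 (*Ifit3b*) to 53633 (*Ifitm3*). Of them 46 were higher and 3 lower with telmisartan, and the ratio's interval lay above 0 for 44, against 22.1% of the 11073 genes with at least 100 UMIs, below 0 for 1 (*Dtx3l*), against 31.4%, and included 0 for 4 (*Herc6*, *Parp9*, *Phf11b*, *Tor3a*). At least 1.5-fold higher were 19 of 49 members, against 4.78% of those genes, and at least 1.5-fold lower were 0 of 49, against 2.23% of those genes. The median member ratio was 0.48 and the median over all 11073 genes was -0.05. Counted as UMIs per cell with no scaling for depth, where the all-gene median was -0.45, 29 members were higher and 20 lower, the lower ones being 4 of 5 sensors, 3 of 4 transcription factors, 4 of 4 of the PARP and DTX3L group and 9 members of other roles. The most abundant member by UMIs, *Ifitm3*, made up 23.9% of the control and 23.5% of the telmisartan sum, and without it the sum went from 2177 to 3174 CPM.

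The IFIT proteins bind foreign RNA lacking host cap marks and block its translation. *Ifit1* went from 13.1 CPM [12.0, 14.3] in control to 25.8 CPM [24.0, 27.8] with telmisartan in macrophage-like cells, a log2 ratio of 0.98 [0.82, 1.15]. *Ifit3* went from 12.6 CPM [11.5, 13.8] to 29.0 CPM [27.0, 31.0], a ratio of 1.20 [1.03, 1.36]. *Ifit2*, the IFIT member with the most UMIs, went from 18.5 CPM [17.1, 19.9] to 25.1 CPM [23.3, 27.0], a ratio of 0.44 [0.29, 0.60]. The smallest of these 3 ratios was that of *Ifit2*. *Ifit1bl1* (3.02 to 4.55 CPM) is related to *Ifit1*, and *Ifit3b* (2.41 to 3.84 CPM) is near-identical to *Ifit3*. The split of UMIs among related genes is uncertain. All 5 IFIT genes lie together on chromosome 19 between 34550694 and 34650009 (GRCm38).

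OAS proteins sense double-stranded RNA, and the enzymatically active ones among them switch on RNase L. *Oasl2*, the OAS member with the most UMIs, went from 62.4 CPM [59.9, 65.0] to 97.4 CPM [93.8, 101], a log2 ratio of 0.64 [0.56, 0.72]. *Oasl1*, an OAS-like protein known to restrain translation of IRF7, went from 12.9 CPM [11.8, 14.1] to 39.4 CPM [37.2, 41.8], a ratio of 1.61 [1.46, 1.77]. The family's ratios ran from 0.47 (*Oas1a*) to 1.61 (*Oasl1*), and 4 of 6 were at least 1.5-fold higher. *Oas1g* went from 6.03 to 13.6 CPM, *Oas2* from 14.1 to 21.1 CPM and *Oas3* from 10.4 to 16.8 CPM. *Oas1a* and *Oas1g* are near-identical copies and their separate values are uncertain.

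The other antiviral effectors act at different steps of a viral life cycle. *Rsad2* (viperin), which makes a chain-terminating nucleotide, went from 40.4 CPM [38.4, 42.4] to 94.97 CPM [91.4, 98.6], a log2 ratio of 1.23 [1.14, 1.33]. Its neighbor on chromosome 12, *Cmpk2*, a nucleotide kinase that supplies the substrate, went from 7.001 to 14.7 CPM (1.07 [0.85, 1.30]). Both genes of this pair were at least 2-fold higher. *Ifitm3*, a membrane protein that hinders viral fusion, went from 683 CPM [675, 692] to 972 CPM [961, 984], a ratio of 0.51 [0.48, 0.53]. The GTPase *Mx1* went from 12.6 to 22.8 CPM (0.86 [0.69, 1.03]), and the exonuclease *Isg20* from 7.66 to 11.4 CPM (0.58 [0.34, 0.81]). Smaller ratios were those of the RNA-activated kinase *Eif2ak2* at 0.46, the virion tether *Bst2* at 0.39 and *Samd9l* at 0.17, and 3 of the 8 genes in this role were at least 1.5-fold higher.

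ISG15 is a ubiquitin-like protein that is attached to other proteins after interferon. *Isg15* went from 39.9 CPM [38.0, 41.99] to 84.8 CPM [81.5, 88.3], a log2 ratio of 1.09 [0.99, 1.18]. *Usp18*, which removes ISG15 and dampens signaling at the interferon receptor, went from 11.04 to 20.03 CPM (0.86 [0.68, 1.04]). *Herc6*, the mouse ligase for ISG15, stood at 23.9 and 26.1 CPM (0.12 [-0.02, 0.26]). The modifier and its protease were thus higher with telmisartan by more than counting error, and for the ligase no difference was detectable at this depth.

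The 5 nucleic acid sensors moved less, with log2 ratios from 0.20 (*Zbp1*) to 0.43 (*Ifih1*) and none at 1.5-fold, and per cell without scaling only *Ifih1* remained above 0. *Ifi204*, a sensor of DNA and the sensor with the most UMIs, went from 125 CPM [122, 129] to 147 CPM [142, 151], a ratio of 0.23 [0.17, 0.29]. The RNA helicases *Ddx58* (RIG-I), *Ifih1* (MDA5) and *Dhx58* (LGP2) had ratios of 0.30, 0.43 and 0.36.

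Among the transcription factors, *Irf7*, which amplifies interferon alpha production, went from 29.1 CPM [27.4, 30.9] to 60.7 CPM [57.9, 63.7], a log2 ratio of 1.06 [0.95, 1.17]. *Sp100*, a nuclear body protein and the member of this role with the most UMIs, went from 115 CPM [111, 118] to 134 CPM [130, 139] (0.23 [0.17, 0.29]). *Irf9* and *Stat2* had ratios of 0.36 and 0.27. Only *Irf7* of these 4 passed 1.5-fold, and only it was also higher per cell without scaling.

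The ADP-ribosyltransferases of the PARP family and the ubiquitin ligase *Dtx3l* had the lowest median log2 ratio of the roles, 0.18. *Parp14*, which had the most UMIs here, went from 61.2 CPM [58.7, 63.7] to 74.0 CPM [70.9, 77.3] (0.28 [0.19, 0.36]). *Parp9*, whose protein pairs with DTX3L, stood at 38.2 and 40.5 CPM (0.08 [-0.03, 0.20]). *Dtx3l* itself went down, from 49.04 CPM [46.8, 51.3] to 39.0 CPM [36.8, 41.4], a ratio of -0.33 [-0.44, -0.22]. The partners thus differed in direction of the estimate. Their genes overlap on chromosome 16 (*Dtx3l* ends at 35939151 and *Parp9* starts at 35938470), at the transcription start of *Dtx3l*, which is on the minus strand. UMIs within the overlap are uncertain, and the part of the overlap in the 2 ratios was not tested.

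The Schlafen genes, of which *Slfn5* and *Slfn8* encode long forms and *Slfn1* and *Slfn4* shorter ones, are known for effects on growth and quiescence of lymphoid and myeloid cells. *Slfn4*, expressed in myeloid cells, went from 79.6 CPM [76.8, 82.5] to 263 CPM [257, 269], a log2 ratio of 1.72 [1.66, 1.78]. The other 3 ratios were 0.67 (*Slfn5*), 0.48 (*Slfn8*) and 0.20 (*Slfn1*), so *Slfn4* stood apart from its neighbors on chromosome 11. The family is closely related in sequence, so the split of UMIs among its genes is uncertain.

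The largest ratio of all members was that of *Ifi44*, a cytoplasmic protein of unsettled function, which went from 2.94 CPM [2.42, 3.53] to 12.5 CPM [11.2, 13.9], a log2 ratio of 2.09 [1.78, 2.41]. *Ifi27l2a*, a small membrane protein, went from 142 CPM [138, 146] to 351 CPM [344, 358], a ratio of 1.31 [1.26, 1.35]. *Rtp4*, a receptor chaperone, went from 28.9 to 56.5 CPM (0.97 [0.86, 1.08]). These were the 3 of 10 members with other or mixed roles that passed 1.5-fold. At the low end of this role, *Lgals3bp*, a secreted glycoprotein, stood at 208 CPM [203, 212] and 215 CPM [210, 221] (0.05 [0.00, 0.10]). *Phf11b* stood at 71.7 and 69.8 CPM (-0.04 [-0.12, 0.05]) and *Tor3a*, an ATPase of the endoplasmic reticulum, at 31.7 and 31.5 CPM (-0.01 [-0.13, 0.12]). For the last 2 genes no difference was detectable at this depth, and *Phf11b* shares sequence with *Phf11d* (18.2 to 26.1 CPM), so the split between them is uncertain. The ratios of *Ifi35* (0.36), *Xaf1* (0.48) and *Trim30a* (0.10) lay between.

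**Figure D2:**
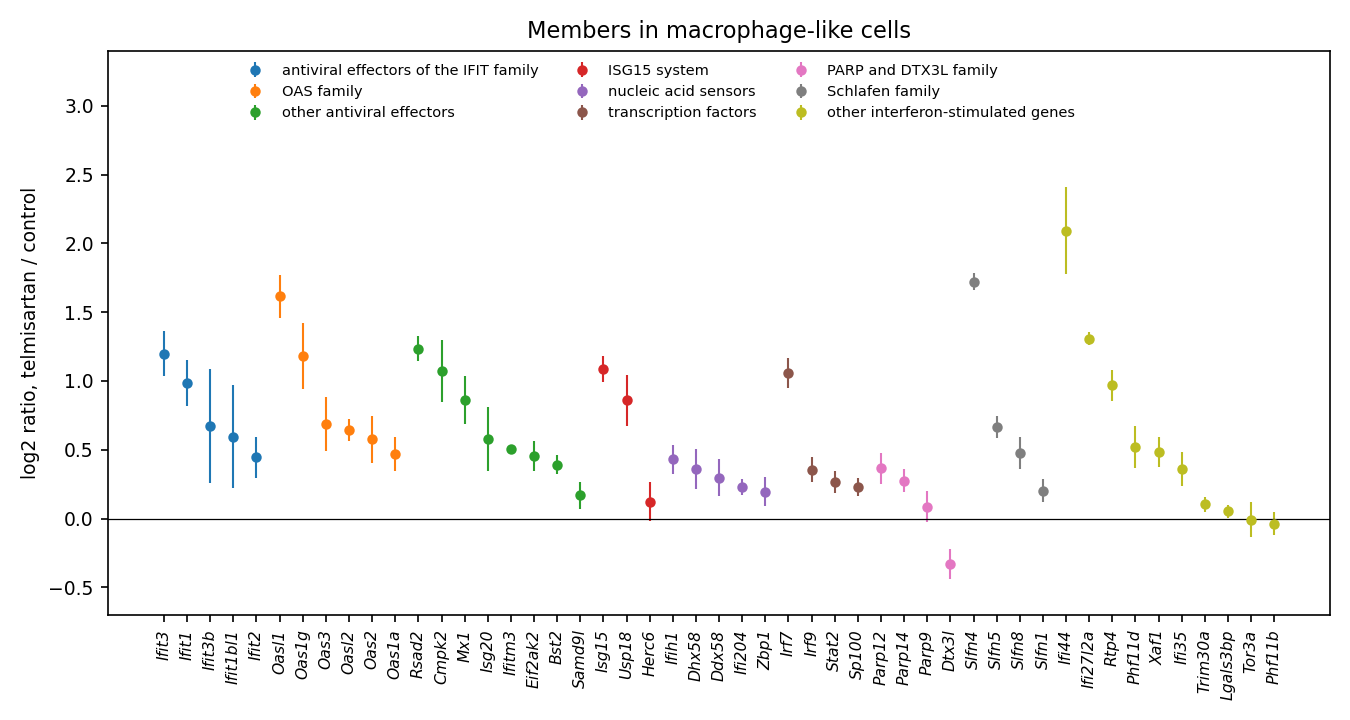
Log2 ratio of telmisartan over control for each of the 49 members in macrophage-like cells, ordered by role, with 95% intervals for counting error. On the CPM scale 46 members lie above 0, with *Ifi44* at 2.09 and *Dtx3l* at -0.33 at the ends. Without scaling for depth, where the all-gene median was -0.45, 29 members were above 0.

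Macrophage-like cells fell into 7 subclusters, and subcluster 2 held more control cells (1280) than any other while subcluster 1 held more telmisartan cells (1152) than any other. Subcluster 1, led by *Dcstamp*, *Ereg* and *Tnfsf15*, had 1742 CPM of the members in control and 2822 CPM with telmisartan (log2 ratio 0.70 [0.67, 0.73]). Subcluster 2, led by *Serpina3g*, *Cxcl9* and *Ly6i*, had 3217 and 4722 CPM (0.55 [0.53, 0.58]). Subcluster 3, led by *Apoe*, *Ccl8* and *Folr2*, had 2269 and 2856 CPM (0.33 [0.30, 0.36]). In these 3 subclusters the members' sum was higher with telmisartan by more than counting error. Subcluster 5, led by *Serpinb2*, *Il6* and *Hmox1*, had the largest ratio, from 3354 to 5915 CPM (0.82 [0.78, 0.86]). Subclusters 6 (led by *Top2a*, 2235 and 2730 CPM) and 7 (led by *Ung*, 1840 and 2916 CPM) had ratios of 0.29 [0.25, 0.33] and 0.66 [0.60, 0.73]. Subcluster 4, led by members themselves (*Ifit3*, *Ifit2*, *Ifit1*, *Rsad2*), had 13032 CPM [12835, 13231] in control and 13180 CPM [13034, 13328] with telmisartan, a ratio of 0.02 [-0.01, 0.04]. Within subcluster 4 the groups thus did not differ in the sum beyond counting error, while each of the other 6 subclusters was higher with telmisartan.

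Subcluster 4 held 376 control and 747 telmisartan cells, and 21.1% of the macrophage-like UMIs of the members against 5.47% of all macrophage-like UMIs. Its level over both groups was 13128 CPM against 2846 CPM in the other macrophage-like cells, a log2 ratio of 2.21 [2.19, 2.22] (2.38 in control and 1.99 with telmisartan). It was 1.78 in thinned cells, 1.43 for the highest subcluster when the members were left out of the clustering genes, and 0.72 per cell without scaling. Because the members took part in the clustering, this is a description. All 49 members had their highest level in subcluster 4, as did 20.5% of all genes compared, and 49 of 49 were at least 1.5-fold higher there than in the other macrophage-like cells, against 14.1% of genes. The median member ratio was 2.33 and that of all genes was -0.09, with members from 0.70 (*Lgals3bp*) to 6.74 (*Ifit1bl1*). The IFIT genes lay between 4.96 and 6.74, and *Cmpk2* of the other antiviral effectors at 5.12.

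The cells of subcluster 4 were shallow, with a median of 2372.5 UMIs in control (0.273 of the control group's median) and 2466 with telmisartan (0.388 of its group's). Their median mitochondrial share was 11.9% in control and 10.8% with telmisartan, against 7.21% and 8.14% over all macrophage-like cells. All 11 of 11 macrophage markers were detected there, at 12059 CPM in control and 11676 CPM with telmisartan, with *Lyz2* the most abundant, against 18003 and 18175 CPM over all macrophage-like cells. Of 6 neutrophil markers 5 were detected, at 83.5 and 70.1 CPM, with *Csf3r* the most abundant and *Retnlg* at 0, against 14590 CPM in neutrophil-like cells. Of 6 plasmacytoid dendritic cell markers 3 were detected, at 2.34 and 2.12 CPM, with *Pacsin1* the most abundant and *Siglech*, *Klk1* and *Dntt* at 0. The part of depth and of mitochondrial share in the members' level was not tested.

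When the members were left out of the genes used for clustering, a counterpart of 1102 cells formed that shared 945 cells with subcluster 4, 84.1% of subcluster 4 and 85.8% of the counterpart. The members' sum in it was 7254 CPM [7072, 7440] in control and 9001 CPM [8875, 9130] with telmisartan, a log2 ratio of 0.31 [0.27, 0.35]. The level was thus lower than in subcluster 4. The interval of the group ratio lay above 0, where that of subcluster 4 on the same CPM scale included 0. Another subcluster of that clustering, of 681 cells and led by *Serpina3g*, *Iigp1* and *Cxcl9*, with *Gbp5* and *Ifit3* among its leading genes, held 5802 CPM of the members in control and 9604 CPM with telmisartan (0.73 [0.70, 0.76]).

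Within subcluster 4 the members split. Per cell without scaling, where the median of all genes was -0.16, 9 were higher and 40 lower with telmisartan. On the CPM scale 15 were higher (against 44.8% of genes) and 34 lower. Intervals lay above 0 for 5 of 49, against 10.1% of the 7941 genes with at least 30 UMIs there, and below 0 for 15, against 12.3%. *Ifi44* went from 39.0 to 77.7 CPM (log2 ratio 0.99 [0.54, 1.48]), *Ifi27l2a* from 549 to 936 CPM (0.77 [0.65, 0.89]) and *Slfn4* from 921 to 1562 CPM (0.76 [0.67, 0.86]). These were the 3 of 49 members at least 1.5-fold higher there, against 8.84% of genes, and 4 were at least 1.5-fold lower (*Ifit1bl1*, *Ifit2*, *Ifit3b* and *Phf11b*), against 8.59%, so both shares were close to those of all genes. In contrast *Ifit2* went from 356 to 211 CPM (-0.75 [-0.94, -0.57]) and *Ifit1* from 251 to 200.4 CPM (-0.32 [-0.53, -0.11]). *Isg15* stood at 485 and 488 CPM (0.01 [-0.13, 0.15]), *Rsad2* at 599 and 637 CPM (0.09 [-0.04, 0.22]) and *Ifit3* at 303.5 and 276 CPM (-0.14 [-0.32, 0.05]). For these last 3 no difference between groups was detectable inside the subcluster, although over all macrophage-like cells each was at least 2-fold higher.

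In subcluster 5 the pattern was one-sided. Of 47 members with at least 30 UMIs, 45 were higher with telmisartan per cell without scaling, where the median of all genes was -0.19. On the CPM scale 47 of 47 were higher (against 47.3% of genes). Intervals lay above 0 for 42 of 47, against 13.3% of the 8304 genes with as many UMIs there, and below 0 for none, against 11.3%. *Isg15* went from 56.5 to 176 CPM there (1.64 [1.35, 1.94]) and *Rsad2* from 147 to 270.2 CPM (0.88 [0.69, 1.08]). *Ifi44* went from 1.82 to 24.2 CPM (3.73 [2.30, 5.65]). Elsewhere, members with at least 30 UMIs were higher with telmisartan for 40 of 44 in subcluster 1 (against 57.4% of all genes with as many UMIs there), 46 of 47 in subcluster 2 (45%), 37 of 46 in subcluster 3 (40.2%), 34 of 46 in subcluster 6 (42%) and 27 of 34 in subcluster 7 (45.7%) on the CPM scale. Per cell without scaling the numbers higher were 29 of 44, 42 of 47, 21 of 46, 23 of 46 and 22 of 34 in the same order. The medians of all genes were then -0.36, -0.26, -0.40, -0.27 and -0.27. In subclusters 3 and 6 no more members were then higher than lower, but that scale lowers every gene's ratio alike. In every one of the 7 subclusters 12 of 49 members were higher on the CPM scale, against 5.95% of genes, namely *Oas1g*, *Oasl1*, *Eif2ak2*, *Ifitm3*, *Isg15*, *Irf7*, *Parp14*, *Slfn4*, *Ifi44*, *Ifi35*, *Ifi27l2a* and *Rtp4*. In subcluster 4 the interval of 5 of these 12 lay above 0 (*Oasl1*, *Ifitm3*, *Slfn4*, *Ifi44* and *Ifi27l2a*), and that of the others, such as *Irf7* (0.00 [-0.19, 0.20]), included 0.

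Members differed in how sharply subclusters set them apart. *Ifit1bl1* had the largest measured span, from 57.7 CPM in subcluster 4 to 0.0609 CPM (1 UMI) in subcluster 1, a log2 ratio of 9.89 [7.39, 15.20]. *Ifit3b* had 0 UMIs in subcluster 7, and against a floor of 3 UMIs over that subcluster its ratio was at least 5.78. The smallest span was that of *Irf9*, from 99.8 CPM in subcluster 4 to 40.9 CPM in subcluster 7, a ratio of 1.29 [1.01, 1.57]. *Ifit1bl1* and *Ifit3b* were thus at or near 0 in some subclusters, whereas *Irf9* was found in all 7.

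**Figure D3:**
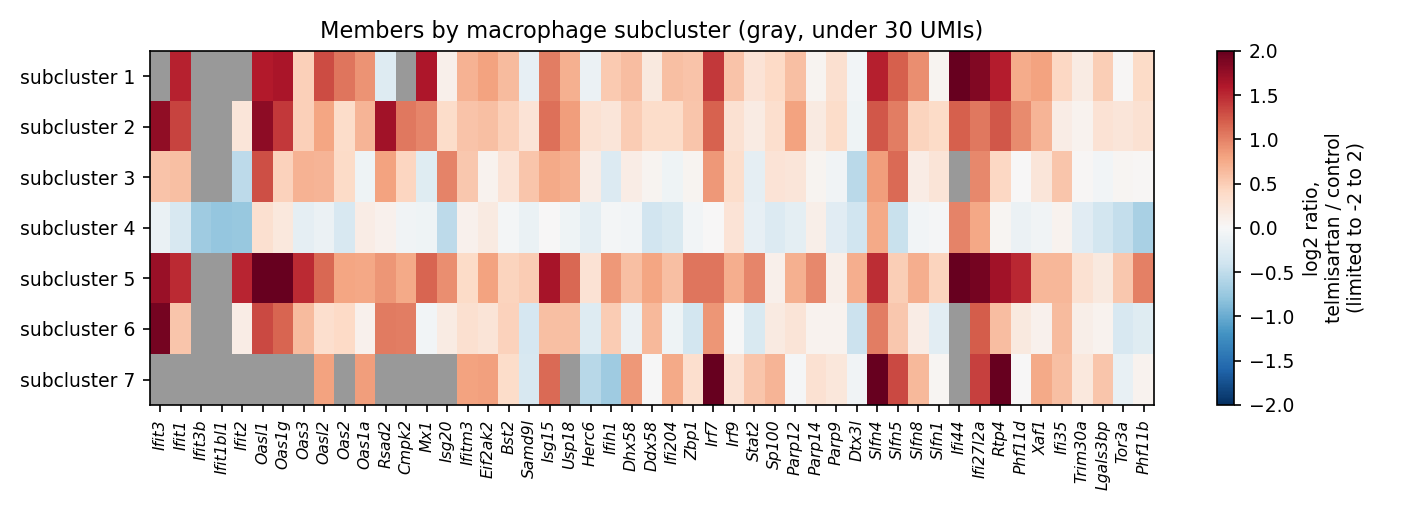
Log2 ratio of telmisartan over control for each member in each of the 7 macrophage subclusters on the CPM scale, with combinations under 30 UMIs in gray. In subcluster 5 all 47 colored members are above 0 (45 per cell without scaling), and in subcluster 4, 15 are above and 34 below (9 and 40 without scaling). The medians of all genes without scaling were -0.19 in subcluster 5 and -0.16 in subcluster 4.

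Cell by cell, the members were followed after each macrophage-like cell was thinned to 1000 UMIs, which left out 45 control and 72 telmisartan cells. The median cell then held 2 member UMIs in control and 3 with telmisartan, and the cell at the 90th percentile held 7 and 12. At least 10 member UMIs were found in 233 of 4004 control cells (5.82% [5.11, 6.59]) and in 538 of 3927 telmisartan cells (13.7% [12.6, 14.8]). Without thinning, members made up at least 1% of a cell's UMIs in 5.04% [4.38, 5.76] of control and 12.6% [11.5, 13.6] of telmisartan macrophage-like cells. The share of cells rich in member UMIs was thus higher with telmisartan both ways, and inside subcluster 4 the thinned shares were 37.2% [32.2, 42.6] and 46.0% [42.3, 49.8].

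As a description of how the members move together, cells were ranked within each group by the thinned UMIs of 5 members (*Ifit1*, *Ifit2*, *Ifit3*, *Rsad2* and *Isg15*), and the other 44 members were compared between the top 10% and the remaining cells. All 5 are leading genes of subcluster 4, and the list was set with such genes known, so that the other members are high in the same cells is no test. Only 311 control and 571 telmisartan cells had any of those UMIs, so 89 of the 400 top control cells had 0 and were placed by a random order. The other 44 members summed to 11232 CPM in the top cells and 3220 CPM in the remaining cells, a log2 ratio of 1.80 [1.77, 1.84]. In control the levels were 8218 and 2633 CPM, and with telmisartan 14300 and 3819 CPM. Of the 43 other members with at least 30 UMIs in these thinned cells, 43 were at least 1.5-fold higher in the top cells, against 9.23% of 9654 genes, with a median ratio of 2.02 against -0.08. With subcluster 4 left out the levels were 6712 and 2852 CPM, a ratio of 1.23 [1.18, 1.29]. Genes outside the list with the highest ratio in this ranking were *Retnla* (5.38), *Ifi208* (3.78), *Ifi206* (2.99), *Ifi213* (2.85) and *Phf11a* (2.79).

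Dendritic-like cells carried more of the members than macrophage-like cells, 4858 against 3409 CPM over both groups, a log2 ratio of 0.51 [0.49, 0.53] (0.59 in control and 0.44 with telmisartan). At least 1.5-fold higher in dendritic-like cells were 20 of 49 members, against 12.6% of genes. Their 10 of 10 dendritic markers summed to 1926 CPM in control and 1908 CPM with telmisartan, against 19.3 CPM in macrophage-like cells. The 11 of 11 macrophage markers detected in them summed to 3419 CPM in control and 2809 CPM with telmisartan, with *Lyz2* the most abundant. With telmisartan, 37 of the 45 members with at least 30 UMIs were higher and 8 lower, with a median ratio of 0.33 against -0.04 over all genes, and per cell without scaling, where the median of all genes was -0.24, 29 were higher and 16 lower. At least 1.5-fold higher were 12 of 45, against 5.61% of 8946 genes, and 0 were at least 1.5-fold lower, against 8.19%.

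Of those 12 members, *Ifi44* (11.3 to 54.2 CPM, log2 ratio 2.26 [1.69, 2.87]) and *Oasl1* (13.4 to 41.6 CPM, 1.64 [1.08, 2.23]) had the largest ratios in dendritic-like cells, as they were among the highest in macrophage-like cells. *Rtp4* went from 28.4 to 70.2 CPM (1.31 [0.91, 1.71]), *Ifit2* from 17.5 to 41.2 CPM (1.24 [0.72, 1.77]) and *Slfn4* from 11.6 to 23.7 CPM (1.03 [0.37, 1.70]). *Isg15* went from 70.9 to 140.4 CPM (0.99 [0.72, 1.25]), *Ifi27l2a* from 216 to 385 CPM (0.84 [0.68, 0.99]) and *Parp14* from 65.0 to 110 CPM (0.76 [0.47, 1.04]). The remaining 4 were *Rsad2* (33.9 to 56.2 CPM), *Usp18* (23.6 to 38.3 CPM), *Isg20* (18.1 to 29.1 CPM) and *Ifi204* (79.1 to 124 CPM). Of the 45 members with at least 30 UMIs in dendritic-like cells, 8 passed 1.5-fold in both classes, against 1.67% of 8814 genes, 4 in dendritic-like but not macrophage-like cells, against 3.76%, and 7 the other way round, against 1.96%. Another 4 that passed in macrophage-like cells (*Ifit1bl1*, *Ifit3b*, *Oas1g* and *Cmpk2*) had fewer than 30 UMIs in dendritic-like cells, and the difference between the classes was not tested. *Ifit1* (17.8 and 16.9 CPM, -0.07 [-0.73, 0.57]) and *Ifit3* (16.1 and 18.4 CPM, 0.19 [-0.46, 0.84]) showed no difference detectable at this depth in dendritic-like cells, unlike in macrophage-like cells. The members with the most UMIs were *Ifitm3* (1344 and 1768 CPM), *Ifi27l2a*, *Trim30a* (233 and 278 CPM), *Phf11b* (225 and 233 CPM) and *Sp100* (188 and 226 CPM).

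By dendritic subcluster, the first (471 cells, led by *Sirpb1c* and *Slc4a11*, with *C1qa* among its leading genes) had 4567 CPM of the members in control and 6404 CPM with telmisartan, a log2 ratio of 0.49 [0.45, 0.53]. The second (103 cells, led by *Fscn1* and *Cacnb3*) had 2868 and 3126 CPM (0.12 [-0.02, 0.26]), and the third (90 cells, led by *Top2a*, with *Xcr1* among its leading genes) had 4239 and 4503 CPM (0.09 [-0.00, 0.18]). The interval lay above 0 in the first and included 0 in the other 2, which held fewer UMIs, and the difference between the subclusters was not tested. Macrophage markers summed to 4180 CPM in control and 3361 CPM with telmisartan in the first, 1392 and 1255 CPM in the second and 1733 and 1870 CPM in the third. The 10 dendritic markers summed to 893 and 899 CPM, 9288 and 9343 CPM, and 1175 and 1186 CPM in the same order, with *Fscn1* and *Ccr7* the most abundant in the second. A list of 5 markers of *Cd209a*-type dendritic cells ran otherwise, with 3114 and 2291 CPM in the first, 795 and 487 CPM in the second and 1991 and 1493 CPM in the third. The first thus had the most macrophage marker RNA of the 3, the order of dendritic markers depended on the list, and the part of macrophage RNA in its values was not tested.

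T-like cells were few, and their 10 of 10 T cell markers summed to 4939 CPM in control and 6717 CPM with telmisartan. The 11 of 11 macrophage markers detected in them summed to 5951 CPM in control and 3919 CPM with telmisartan, with *Lyz2* the most abundant at 20.3% of its macrophage-like level and *Apoe* at 51.0% of its own. The part of macrophage RNA in the T-like values was not tested. The members' sum over both groups was 3604 CPM, a log2 ratio of 0.08 [0.03, 0.13] to macrophage-like cells (0.22 in control and -0.10 with telmisartan), but its direction turned under 6 of 14 alternatives (down to -0.70 per cell without scaling), so no order of the 2 classes is read from it. At least 1.5-fold higher in T-like than in macrophage-like cells were 14 of 49 members, against 27.7% of genes, so the members' share was close to that of all genes.

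Between the groups, 22 of the 30 members with at least 30 UMIs in T-like cells were higher with telmisartan and 8 lower, and the median ratio was 0.27 against 0.01 over all genes, but per cell without scaling, where the median of all genes was -0.59, 9 were higher and 21 lower. At least 1.5-fold higher were 9 of 30, against 12.4% of 4824 genes, and at least 1.5-fold lower were 2 of 30, against 11.7%. *Ifit1* went from 6.85 CPM (3 UMIs) to 61.9 CPM (28 UMIs), a log2 ratio of 3.17 [1.48, 5.54]. *Slfn4* went from 11.4 to 70.7 CPM (2.63 [1.26, 4.35]) and *Rtp4* from 8 to 43 UMIs (2.38 [1.27, 3.68]). The others higher were *Ifih1*, *Xaf1*, *Slfn5*, *Slfn1*, *Eif2ak2* and *Parp14*, with ratios from 1.21 down to 0.67. These rest on few molecules, with 82 UMIs or fewer in each of the 9 genes. The 2 lower members were *Ifitm3* (402 to 265 CPM, -0.60 [-0.95, -0.26]) and *Irf7* (50.3 to 26.5 CPM, -0.92 [-2.07, 0.15]). *Ifitm3* moved the other way in macrophage-like and dendritic-like cells. The other members with the most UMIs were *Ifi27l2a* (562 and 552 CPM, -0.03 [-0.28, 0.23]), *Sp100* (288 and 369 CPM, 0.36 [0.02, 0.70]), *Trim30a* (210 and 243 CPM, 0.21 [-0.20, 0.63]) and *Lgals3bp* (199 and 150.2 CPM, -0.40 [-0.88, 0.07]).

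By T-like subcluster, the first (75 cells, led by *Gzmg* and *Xcl1*) had 2393 CPM of the members in control and 2858 CPM with telmisartan (log2 ratio 0.26 [0.09, 0.43]). The second (63 cells, led by *Ccl5*, with *Cd8b1*) had 4944 and 4152 CPM (-0.25 [-0.52, 0.02]), and the third (29 cells, led by *Ikzf2*, with *Foxp3*) had 4931 and 5298 CPM (0.10 [-0.11, 0.32]). The fourth, of 18 cells, was led by macrophage genes (*C1qc*, *Msr1*) and had 3543 and 5546 CPM (0.65 [0.44, 0.85]), with macrophage markers at 17950 CPM. The estimate for the members' sum was thus below 0 in the second T-like subcluster alone, and for the second and the third the interval included 0. The difference between the subclusters was not tested.

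Genes upstream of the members were followed from a fixed list. Of the ligands, *Ifnb1* had 4 UMIs in control and 5 with telmisartan in macrophage-like cells and 1 UMI in dendritic-like cells, and the interferon alpha genes with a column (*Ifna4* and *Ifna5*) had 0 UMIs in the 4 classes. The source of type I interferon in these tumors could not be followed at this depth. The receptor gene *Ifnar1* went from 98.6 to 121 CPM in macrophage-like cells (log2 ratio 0.30 [0.23, 0.37]) and *Ifnar2* from 54.2 to 79.9 CPM (0.56 [0.47, 0.65]). The receptor kinases *Jak1* (0.04 [-0.02, 0.09]) and *Tyk2* (-0.02 [-0.16, 0.12]) showed no detectable difference. *Irf1* went from 157 to 238 CPM (0.60 [0.55, 0.65]), while *Irf3* (0.01), *Irf5* (-0.20) and *Irf8* (0.05) differed less. Of the sensing genes, the RNA receptors *Tlr3* and *Tlr7* had ratios of -0.60 and 0.29, and the DNA receptor *Tlr9* -0.09. The DNA sensor *Mb21d1* (cGAS) had 0.29, its adaptor *Tmem173* (STING) -0.35, the RNA sensing adaptor *Mavs* -0.29 and the kinase *Tbk1* 0.38. *Socs1*, which damps signaling, had 0.23. Of the genes named here with at least 100 UMIs, 1 (*Irf1*) was at least 1.5-fold higher and 1 (*Tlr3*) at least 1.5-fold lower. Over all 11073 genes with as many UMIs, 4.78% were at least 1.5-fold higher and 2.23% lower.

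Genes known chiefly for their answer to interferon gamma were followed beside the members. *Cxcl9*, a chemokine for T cells, went from 872 CPM [863, 882] to 398 CPM [391, 406] in macrophage-like cells, a log2 ratio of -1.13 [-1.16, -1.10]. *Ciita*, the activator of MHC class II genes, went from 37.0 to 17.6 CPM (-1.07 [-1.22, -0.92]) and *Serpina3g* from 41.96 to 17.7 CPM (-1.24 [-1.39, -1.10]). These 3 of 9 listed genes were at least 1.5-fold lower, against 2.23% of the 11073 genes, and 0 were at least 1.5-fold higher, against 4.78%. The guanylate-binding genes *Gbp2* and *Gbp5* and the GTPase *Iigp1* had ratios of -0.51, -0.44 and -0.37, *Cxcl10* had -0.04 and *Igtp* 0.01, and *Irgm1* was higher at 0.39. The median over the 9 genes was -0.44 where that of the members was 0.48. Of the 9, 6 were highest in subcluster 2, against 7.5% of genes, and 3 in subcluster 4, against 20.5%, and this placing depends on a clustering in which the members took part. Subcluster 2 held 1280 control and 336 telmisartan cells, 31.7% and 9.56% of the macrophage-like UMIs of each group. Within it *Cxcl9* stood at 1728 and 1707 CPM (-0.02 [-0.06, 0.03]) and *Serpina3g* at 89.9 and 85.5 CPM (-0.07 [-0.28, 0.13]), while *Ciita* went from 67.4 to 40.2 CPM (-0.75 [-1.05, -0.46]). The part of the cell numbers in the ratios over all macrophage-like cells was not tested.

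Outside the list, the genes whose levels followed the members' sum most closely over 20 points (7 macrophage subclusters and 3 other classes in each group) were *Rnf213* (Pearson r 0.97), *Trim30d* (0.93), *Ddx60* (0.91), *Ier5* (0.91), *Irgm1* (0.90), *Ascc3* (0.90), *Mxd1* (0.90), *Rnf34* (0.89), *Susd6* (0.88) and *Itpkc* (0.88), out of 8318 genes compared. Over the 14 macrophage points alone, r was 0.99 for *Rnf213*, 0.85 for *Irgm1* and 0.82 for *Susd6*. The points share the capture and the depth of their group. The highest point is that of the telmisartan neutrophil-like cells, where 1 cell held 48.4% of the members' sum, and those of subcluster 4 come next. *Rnf213* stood at 431 CPM in subcluster 4 and 92.8 CPM in the other macrophage-like cells.

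The 49 members lie on 15 chromosomes, with 8 on chromosome 11, 6 on chromosome 5 (all OAS genes) and 5 each on chromosomes 16 and 19. Promoters are shown because the members were high in the same cells and share a known response element. RefSeq promoters (GRCm38.p6) were matched for 38 of the 50 listed genes and not for *Oas2*, *Mx1*, *Mx2*, *Usp18*, *Dhx58*, *Zbp1*, *Ifi204*, *Parp9*, *Parp14*, *Ifi27l2a*, *Rtp4* and *Tor3a*. The letters of the interferon-stimulated response element, GAAA followed by any 2 bases and GAAA, were found on either strand in the 250 bases before the start in 15 of 38 members (39.5%), against 2.98% of 32851 promoters and 3.46% of 27025 genes. The letters TTCNNNGAA of the gamma-activated site, also on either strand, were found in 5 of 38 members (13.2%), against 7.02% of promoters and 8.13% of genes. A match is a description of letters, not of a bound site. Among members with a promoter, the element was found in *Ifit1*, *Ifit3*, *Isg15* and *Rsad2* and not in *Ifi44*, *Oasl1*, *Irf7*, *Slfn4* or *Ifit2*. The 4 windows printed here carry the element in 4 of the 5 members used to rank cells, each written 5′ to 3′ on the strand of its gene with the matched letters in capitals (TTTC, any 2 bases and TTTC on the other strand are the same element). They lie at chr19:34640765-34640833 on the plus strand (*Ifit1*, 2 matches), chr19:34583353-34583436 on the plus strand (*Ifit3*, 2 matches), chr12:26456543-26456592 on the minus strand (*Rsad2*, 1 match) and chr4:156200855-156200916 on the minus strand (*Isg15*, 3 overlapping matches).
Ifit1: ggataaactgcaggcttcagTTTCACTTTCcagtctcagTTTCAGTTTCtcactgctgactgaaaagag
Ifit3: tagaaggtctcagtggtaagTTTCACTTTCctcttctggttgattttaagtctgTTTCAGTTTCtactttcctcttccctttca
Rsad2: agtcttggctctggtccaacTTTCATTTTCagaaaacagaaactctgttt
Isg15: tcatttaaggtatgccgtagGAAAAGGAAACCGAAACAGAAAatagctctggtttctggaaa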

How the data were processed

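A single capture of both pools was measured, with a whole-transcriptome library and a Sample Tag library. The authors' BD Rhapsody pipeline gave the deposited whole-number counts, UMIs per gene and cell after its error correction, aligned to GRCm38, and the deposited counts of tag reads per cell. Of 20726 putative cells with 107214449 UMIs, a cell was given to a group if at least 75% of at least 10 tag reads were that group's (8738 control, 10222 telmisartan), and 1580 cells with split tags and 186 with few reads were left out. Cells with 150 to 5000 genes and at most 20% mitochondrial UMIs were kept (5078 and 4833). Split-tag cells made up 8.67% within those limits, which predicts 9.51% of unseen doublets, so the 942 cells with the highest Scrublet scores (scanpy 1.11.5) were removed, since Scrublet's own threshold marked 0. The kept control cells held 41591125 UMIs and the telmisartan cells 30921742.

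Cells were clustered with Seurat 5.3.0 in R 4.3.3 (2000 variable genes, 30 principal components or 15 for small classes, 20 neighbors, resolution 0.5, and 0.45, 0.05 and 0.65 for macrophage-like, dendritic-like and T-like subclusters). Classes other than macrophage-like needed at least 3 of their markers at 4-fold or more. Sums, CPM, ratios and intervals were computed with Python 3.11.15, numpy 2.4.6, scipy 1.17.1 and pandas 2.3.3, plots with matplotlib 3.10.9, and edgeR 4.0.16 gave TMM factors for one alternative. The interval script was tested on simulated sums drawn from a Poisson law. These hold no spread between cells, so the test covers the code and not how well the intervals suit the real counts. Gene positions are those of GENCODE M21 on GRCm38, and the counts may rest on another release, so starts and ends may differ from those counted. No test between groups was made. The members, lists and rules were chosen with earlier results of these data known.

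Genes named were, in macrophage-like cells, the member with the most UMIs of each role, the 5 highest and 5 lowest ratios among members with at least 200 UMIs, the 5 members used to rank cells, the largest and smallest span over subclusters and a fixed list of pathway genes (1 of which is not reported here), and in T-like and dendritic-like cells the 5 members with the most UMIs and those at least 1.5-fold apart with at least 30 UMIs. Other members are named to account for the list, and those named within single subclusters were chosen after their values were seen. Ratios over all genes used at least 100 UMIs in macrophage-like cells and 30 in the other classes and in single macrophage subclusters. Alternatives changed the tag call, the limits on cells, doublet removal, clustering, scaling, thinning, the fold and the cells included.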

Additional observations from a re-analysis of the deposited data

Results flagged for a closer look

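*Ifitm3* had opposite directions in different classes, with a log2 ratio of telmisartan over control of -0.60 in T-like cells against 0.51 in macrophage-like, 0.40 in dendritic-like and 1.114 in neutrophil-like cells, and the difference was not tested. *Dtx3l* had a ratio of -0.33 in macrophage-like cells and 1.62 in neutrophil-like cells (25 UMIs, under the minimum of 30), and this difference was not tested either. The neutrophil-like ratios rest on 24 telmisartan cells, of which 1 held 48.4% of the members' UMIs. Cells with a tag call that fell outside the limits on genes or mitochondrial UMIs, which no comparison used, also carried the members. In them the sum was 1933 CPM over 3660 control cells and 2339 CPM over 5389 telmisartan cells, a ratio of 0.28 [0.24, 0.31].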

How the results depend on the processing

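Of 140 values recomputed under alternatives, 82 stayed within the interval of the reported value (counts within 1.5 times), 49 lay outside it in the same direction or as a different count, and 9 changed direction, all in T-like cells. Causes were not tested. The members' ratio between groups stayed above 0 in macrophage-like cells (0.13 to 0.63) and dendritic-like cells (0.18 to 0.45). In macrophage-like cells it was 0.54 with subclusters made without the members and weighted alike in both groups.

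With 90% of tag reads required, the ratios were 0.52 between groups in macrophage-like cells, 2.25 for subcluster 4, 0.49 for dendritic-like against macrophage-like cells and 1.73 for the ranked cells. With at most 10% mitochondrial UMIs they were 0.56 between groups in macrophage-like and 0.44 in dendritic-like cells, 2.46 for the highest subcluster, 0.55 for dendritic-like and -0.0032 for T-like against macrophage-like cells, a change of direction. Without doublet removal they were 0.52, 2.18 for the highest subcluster and 0.46 for dendritic-like against macrophage-like cells. With members left out of the clustering genes, the T-like ratio between groups turned to -0.011, and the others were 1.43 for the highest subcluster, 0.54 for dendritic-like and 0.20 for T-like against macrophage-like cells. A first clustering at resolution 0.3 gave 0.45 in dendritic-like cells and 0.56 for them against macrophage-like cells, at 0.8 it gave 2.10 for the highest subcluster, and finer subclusters gave 2.96.

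As a mean over cells of UMIs per 10000, the group ratios were 0.62 in macrophage-like, 0.45 in dendritic-like and -0.017 in T-like cells (direction changed), and the others were 1.76 for the highest subcluster, 0.28 for dendritic-like and -0.063 for T-like against macrophage-like cells, also a change of direction. As a mean over cells of log2(1 + UMIs per 10000), the macrophage-like difference was 0.56, the median member's 0.052 and members at 1.5-fold 2. The highest subcluster's difference was 1.44, and those against macrophage-like cells were 0.48 (dendritic-like) and -0.024 (T-like, direction changed). These are differences of means of log2(1 + UMIs per 10000), not log2 ratios of summed levels. The tally above set them against intervals of the latter. As UMIs per cell without scaling, the group ratios were 0.13 in macrophage-like (median member 0.068, 10 members higher and 1 lower at 1.5-fold), 0.18 in dendritic-like and -0.38 in T-like cells (direction changed), with 0.72 for the highest subcluster, 0.37 for dendritic-like and -0.70 for T-like against macrophage-like cells (direction changed). TMM factors gave 2.06, 0.43 and -0.31 (direction changed) for those last 3. Thinned cells gave 0.63 in macrophage-like and 0.072 in T-like cells between groups, 1.78 for the highest subcluster, 0.30 for dendritic-like and -0.12 for T-like against macrophage-like cells (direction changed). Totals without mitochondrial and ribosomal protein genes gave 0.13 for T-like against macrophage-like cells. For each change of direction the cause was not tested.

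A fold of 2 left 10 members higher. Without the macrophage-like cluster of lowest UMI counts the ratio was 0.40 and the median member's 0.35. Alternatives chosen after seeing the data gave 0.41 and 0.35 without subcluster 4, and 0.021 for T-like against macrophage-like cells without the T-like subcluster led by macrophage genes. For the ranked cells, the top 5% gave 2.20 and cells thinned to 2000 UMIs 1.90. No paired analysis was possible because each group is 1 pool.

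Each group is a single pool of 5 mice, so the intervals hold no spread between mice. Those for CPM and ratios hold none between cells either. Telmisartan cells were shallower, and values in T-like and neutrophil-like cells rest on few UMIs. Subclusters were formed with the members among the genes used. The split of UMIs between near-identical genes is uncertain and was not tested.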
